A study of Mus musculus with 11 samples.

Results

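The genes described here are 7 members of the neurotrophin system, taken by name from a list: the ligand genes Bdnf, Ntf3 and Ntf5, the receptor kinase genes Ntrk2 (TrkB) and Ntrk3 (TrkC), the gene of the p75 neurotrophin receptor, Ngfr, and the sortilin gene, Sort1. All 7 were found among the 54752 gene identifiers of the count tables, and 6 of the 7 had enough reads to enter the test, the exception being Ntf5. The list was drawn up with earlier results of these same counts known, and which of the measured values the members were chosen by is not recorded. Their levels in every nucleus and all differences between nuclei are therefore counted as used in the choice and given as a description, with no p-values. Where a member is said to have passed the test or not, this describes the fit only.

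Neurotrophins are secreted proteins that are made as longer pro-forms and then cleaved. The mature proteins act through Trk receptor kinases: BDNF and the Ntf5 product bind TrkB, and the Ntf3 product binds mainly TrkC. The p75 receptor binds all of them, and together with sortilin it binds the pro-forms. Ntrk2 and Ntrk3 also give rise to truncated receptors that lack the kinase domain. In developing sensory pathways the family is known for its part in the survival, axon growth and branching of neurons.

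Gene expression was measured in neurons of 3 nuclei of the newborn mouse thalamus: the dorsolateral geniculate nucleus for vision (dLG, 4 libraries), the ventral posteromedial nucleus for touch of the face (VPM, 4 libraries) and the ventral division of the medial geniculate nucleus for hearing (MGv, 3 libraries). All groups shared the genotype Gbx2CreER-IRES-EGFP/+::R26lsl-tdTomato/+, the strain ICR/CD-1, the age of postnatal day 0 and the pooling of 4 brains per sample. In what is recorded of them, they differed only in the nucleus dissected. In this line Gbx2 drives a drug-inducible Cre recombinase that turns on a tdTomato reporter, and the labelled neurons were sorted by red fluorescence, so the sort depended on Gbx2, whose own level differed between the nuclei (means of 29.4 CPM in dLG, 35.3 CPM in VPM and 304 CPM in MGv, where CPM is the count per 1000000 counts of the library). The time at which the Cre was induced is not given in the sources used here. Nothing in the labels says whether the pools of different libraries came from separate litters, so errors describe the spread between these pools. The comparison asks how the members differ between neurons of the 3 nuclei.

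Library totals were between 10.2 and 23.6 M counts, with the 3 MGv libraries the shallowest (up to 13.2 M counts), and 3 counts, taken as the smallest amount that could be told from 0, were worth 0.127 to 0.295 CPM. The 8 genes of thalamic relay neurons summed to 2218 to 3515 CPM and the 8 pan-neuronal genes to 9242 to 11899 CPM. The lists of other cells were lower: over all libraries the sums reached at most 237 CPM for astrocytes and radial glia, 86.5 CPM for the oligodendrocyte lineage, 70.9 CPM for microglia, 45.6 CPM for cycling cells, 15.1 CPM for endothelium, 14.5 CPM for GABAergic neurons, 7.75 CPM for mural cells, fibroblasts and Schwann cells, and 5.73 CPM for cortical neurons. Red blood cell genes stood at 514 CPM in the third dLG library and at no more than 11.7 CPM in the others. Of the libraries, 3 stood apart in Hspa8, a heat shock protein gene: dLG 2, VPM 3 and MGv 1 held 3.05 to 5.56 CPM of it, against 159 to 581 CPM in the other 8. Results that rest on these 3 libraries are given with and without them.

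VPM neurons held the most Bdnf, Ntf3, Ntrk3 and Ngfr transcript. For these 4 of the 6 tested members every VPM library lay above every library of dLG and of MGv, which was so for 3.49% of all tested genes. Against dLG, the same 4 members passed an adjusted p of 0.1 in edgeR's quasi-likelihood test, all higher in VPM (5.74% of all tested genes were higher in VPM, 4.97% were higher in dLG and 10.7% differed in all). Against MGv, 3 members passed with a higher level in VPM, namely Bdnf, Ntf3 and Ngfr (10.4% of all tested genes in that direction, 8.56% in the other and 19.0% in all). Between dLG and MGv the only member that passed was Ntf3, higher in dLG (8.61% of all tested genes in that direction, 7.49% in the other and 16.1% in all). The libraries of the nuclei did not overlap for 4 of the 6 members between dLG and VPM (14.6% of all tested genes), 1 between dLG and MGv (23.8%) and 4 between VPM and MGv (25.1%). Since the members were listed with these data known, the counts are not read against those backgrounds. The median log2 fold change of the 6 tested members was -1.87 for dLG minus VPM, 0.18 for dLG minus MGv and 1.36 for VPM minus MGv, where all tested genes had medians of 0.0048, 0.015 and 0.022. In bulk RNA, fewer cells that make a transcript and less of it per cell cannot be told apart. Of the marker lists, the GABAergic one also had its VPM libraries above all dLG libraries (4.04 to 14.5 CPM against 0.620 to 3.43 CPM, with 3.38 to 8.94 CPM in MGv), as had the cortical neuron list (2.94 to 4.22 CPM against 0.817 to 2.45 CPM, with 1.67 to 5.73 CPM in MGv). The mural, fibroblast and Schwann cell list had VPM and dLG libraries above all MGv libraries (at least 4.85 CPM, against at most 3.68 CPM). Between dLG and MGv, the endothelial list was higher in all dLG libraries (10.2 to 15.1 CPM against 6.03 to 7.96 CPM) and the pan-neuronal list in all MGv libraries (10981.5 to 11609.5 CPM against 9242 to 10344 CPM). The relay neuron list had VPM libraries below all others (2218 to 2848 CPM, against at least 3107 CPM), and the oligodendrocyte lineage list separated all nuclei (13.2 to 30.7 CPM in dLG, 33.7 to 44.0 CPM in VPM and 75.2 to 86.5 CPM in MGv). Sst led the GABAergic list, at up to 11.9 CPM, and Mbp the oligodendrocyte list, at up to 71.5 CPM, while Slc32a1, which GABAergic neurons need to load vesicles, reached 0.0463 CPM and Sox10, which defines the oligodendrocyte lineage, 0.0476 CPM. The part of these lists in the results of the members was not tested.

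**Figure D1:**
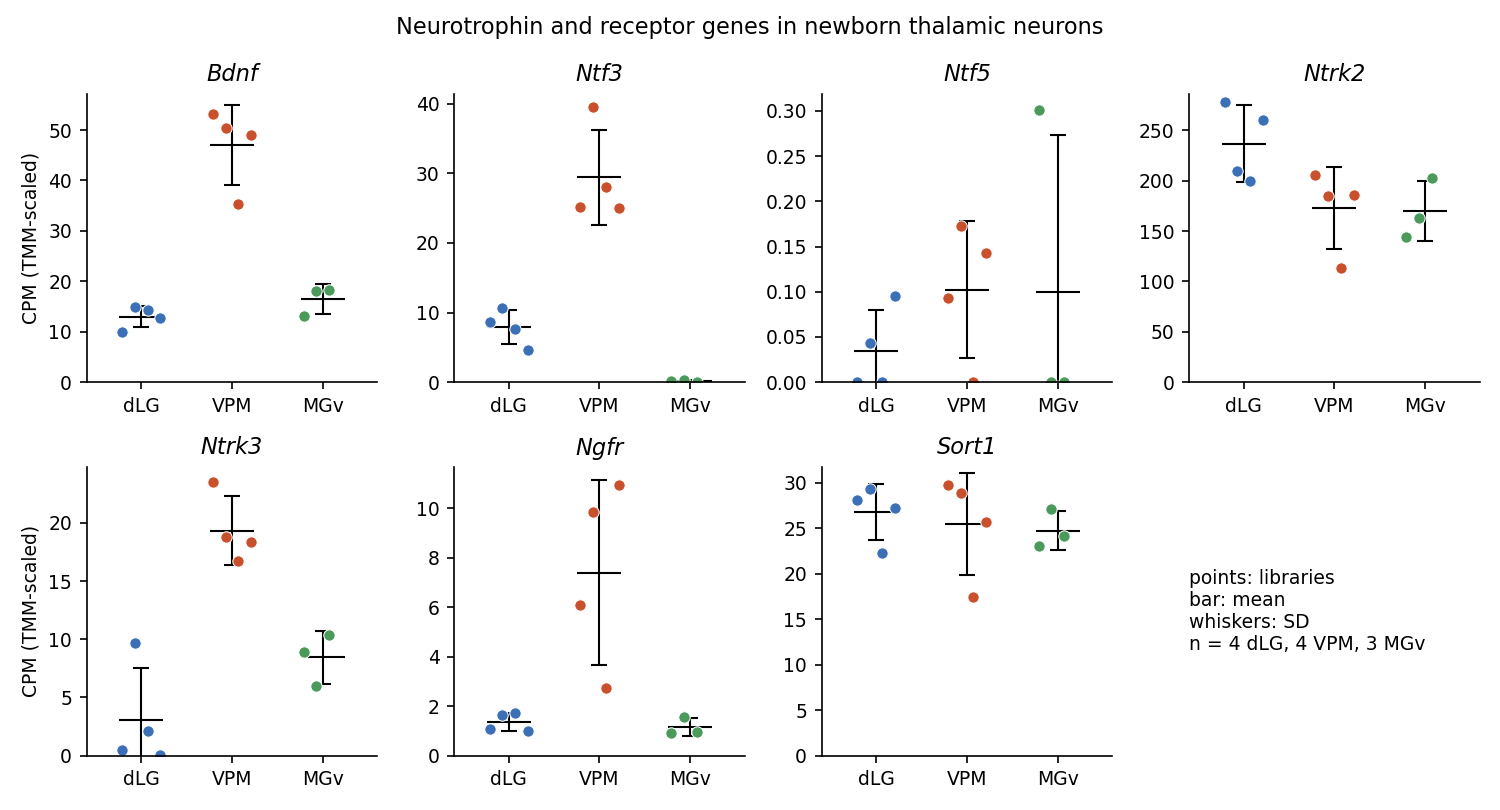
Level of each of the 7 genes in every library, in CPM with libraries scaled by TMM, the trimmed mean of M values (linear axis from 0, a separate scale per gene), with the mean as a bar and the SD as whiskers (4 dLG, 4 VPM and 3 MGv libraries). All VPM points of Bdnf, Ntf3, Ntrk3 and Ngfr lie above those of the other nuclei, the points of Sort1 overlap, and Ntf5 stays at or below 0.30 CPM.

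Bdnf encodes brain-derived neurotrophic factor, the main TrkB ligand. Its locus (GRCm38 chromosome 2, 109674700 to 109727007, plus strand) has 11 annotated transcripts, all coding, with proteins of 249 to 289 amino acids and several alternative first exons. The 4 dLG libraries held 10.05, 14.8, 14.2 and 12.8 CPM, the VPM libraries 53.3, 50.4, 35.3 and 49.1 CPM, and the MGv libraries 13.1, 18.1 and 18.3 CPM. The lowest VPM library, VPM 3, was still above the highest of all others, while the dLG and MGv libraries overlapped. Means were 13.0 ± 2.13 CPM across dLG libraries (SD, n = 4), 47.0 ± 8.0 CPM across VPM libraries (SD, n = 4) and 16.5 ± 2.95 CPM across MGv libraries (SD, n = 3), so that VPM stood 3.62 times above dLG and 2.85 times above MGv. The fitted log2 fold change was -1.86 ± 0.19 (SE) for dLG minus VPM and 1.51 ± 0.21 (SE) for VPM minus MGv, both past the threshold, and -0.34 ± 0.20 (SE) for dLG minus MGv, which was not. Without the 3 libraries low in Hspa8 the last difference was -0.57 and passed. Of the exonic bases of Bdnf, 14.4% lie opposite the antisense gene Gm45346, which had 0 or 1 count per library, and whether the counting used strand was not stated.

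The promoter of Bdnf is shown because the gene was higher in VPM and is known to be switched on by neuronal activity through cAMP response elements. RefSeq gives 7 start windows for it (250 bases before to 50 after each start, build GRCm38.p6), and the gene counts do not tell which was in use. The window printed is the third, plus strand, which alone among the 7 holds a match to the short response element TGACG, found on either strand and marked in capitals.

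Bdnf, chr2:109692186-109692485: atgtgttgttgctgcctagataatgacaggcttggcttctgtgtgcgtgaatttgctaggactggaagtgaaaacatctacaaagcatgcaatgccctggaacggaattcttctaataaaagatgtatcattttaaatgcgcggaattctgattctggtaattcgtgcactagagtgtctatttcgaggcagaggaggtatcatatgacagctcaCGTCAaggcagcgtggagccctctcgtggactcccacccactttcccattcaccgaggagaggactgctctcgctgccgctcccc

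This short element lies inside the full element TGACGTCA, which no window of the members holds. Over all 32851 RefSeq windows, 20.8% hold the short element and 1.79% the full one. The shares for the other motifs, searched on both strands, are 35.7% for the GC box GGGCGG, 13.6% for the TATA box TATAAA, 72.3% for the E-box CANNTG and 16.3% for the nuclear receptor half-site AGGTCA. The GC box was matched in 2 of the 7 Bdnf windows, the TATA box in none.

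Over 14 genes that neuronal activity and tissue dissociation induce, the summed level was 499 to 775 CPM in dLG, 300 to 401 CPM in VPM and 656 to 915 CPM in MGv, and the VPM range lay below both others. Not all of these genes had their lowest mean in VPM: Npas4, Atf3 and Ier2 were lowest in dLG (3.91, 0.365 and 13.6 CPM, against 4.95, 0.693 and 14.8 CPM in VPM), Hspa1a averaged 13.7 CPM in both VPM and MGv, and Jund had its highest mean in VPM (8.44 CPM). Fos, an immediate early transcription factor, averaged 210 ± 59.2 CPM across dLG libraries (SD, n = 4), 77.8 ± 15.4 CPM across VPM libraries (SD, n = 4) and 282 ± 52.9 CPM across MGv libraries (SD, n = 3). Its log2 fold change was 1.43 ± 0.20 (SE) for dLG minus VPM (edgeR quasi-likelihood test, Benjamini-Hochberg adjusted p = 0.000547) and -1.86 ± 0.21 (SE) for VPM minus MGv (edgeR adjusted p = 6.88e-05). The part of this difference in the Bdnf result was not tested.

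**Figure D2:**
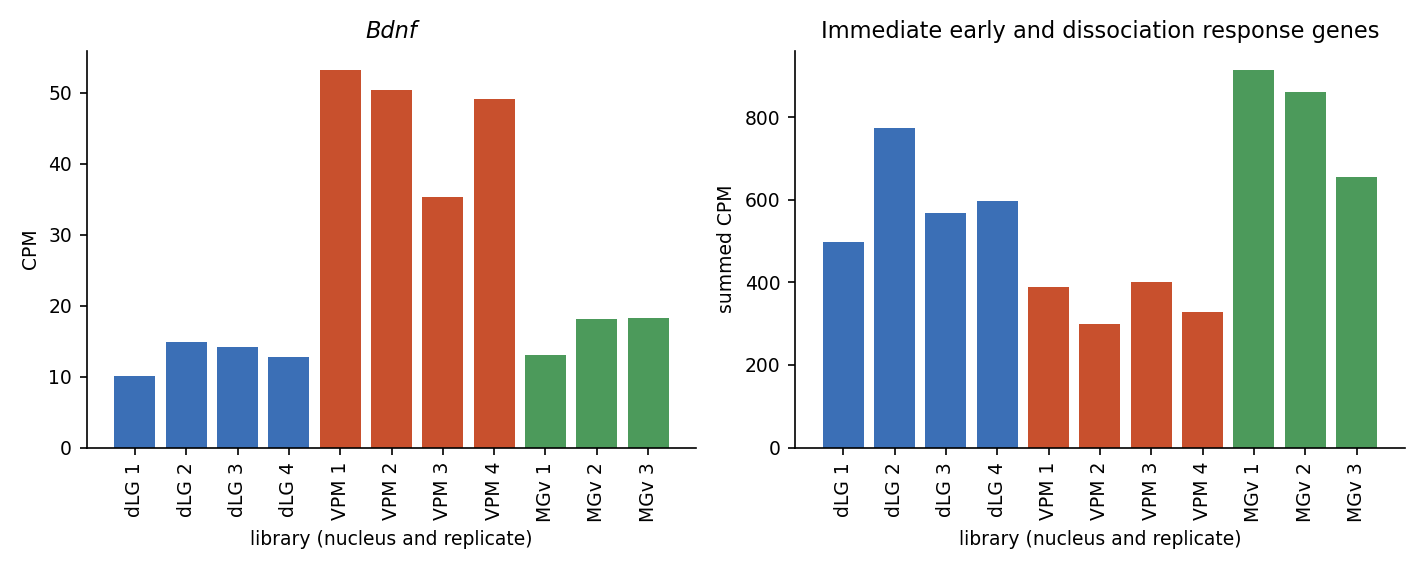
Bdnf (left) and the summed level of 14 immediate early and dissociation response genes (right) in each of the 11 libraries, in CPM on linear axes from 0, with 1 bar per library. The VPM libraries are highest for Bdnf, at 35.3 to 53.3 CPM, and lowest for the summed genes, at 300 to 401 CPM.

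Ntf3 encodes neurotrophin 3, the TrkC ligand, from a locus on GRCm38 chromosome 6 (126101412 to 126166910, minus strand). The dLG libraries held 8.71, 10.6, 7.68 and 4.68 CPM, the VPM libraries 25.2, 39.5, 28.0 and 25.1 CPM, and the MGv libraries 0.15, 0.26 and 0 CPM. The 3 nuclei did not overlap, with VPM on top, dLG between and MGv at 2, 3 and 0 counts, which is at or below the floor of 3 counts in each library. Means were 7.92 ± 2.48 CPM across dLG libraries (SD, n = 4), 29.4 ± 6.83 CPM across VPM libraries (SD, n = 4) and 0.138 ± 0.132 CPM across MGv libraries (SD, n = 3). VPM stood 3.71 times above dLG, with a fitted log2 fold change of -1.89 ± 0.28 (SE) for dLG minus VPM. Against MGv, where the 3 libraries held 5 counts in all, the ratio of depth-scaled counts was 55.7 for dLG (629 counts, 95% exact counting interval 23.7 to 172) and 208 for VPM (2433 counts, interval 89.0 to 641). These intervals cover counting error only. The fitted log2 values, 5.73 ± 0.52 (SE) for dLG minus MGv and 7.62 ± 0.51 (SE) for VPM minus MGv, depend on the small count added to the MGv libraries. All 3 contrasts were past the threshold, and Ntf3 was the one member of the 6 for which dLG and MGv libraries did not overlap. VPM 3, the lowest VPM library for Bdnf, Ntrk2, Ntrk3, Ngfr and Sort1, was not the lowest for Ntf3.

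Ntf3 has 2 RefSeq start windows, both printed because the gene differed between all nuclei, with the minus strand read 5′ to 3′ and the GC box in capitals.

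Ntf3 window 1, chr6:126166695-126166994: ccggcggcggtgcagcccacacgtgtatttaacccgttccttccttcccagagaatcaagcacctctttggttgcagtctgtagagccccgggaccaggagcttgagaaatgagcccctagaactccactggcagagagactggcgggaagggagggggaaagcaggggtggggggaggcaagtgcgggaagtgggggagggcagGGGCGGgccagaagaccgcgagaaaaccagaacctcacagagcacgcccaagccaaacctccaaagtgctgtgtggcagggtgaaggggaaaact

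Ntf3 window 2, chr6:126164911-126165210: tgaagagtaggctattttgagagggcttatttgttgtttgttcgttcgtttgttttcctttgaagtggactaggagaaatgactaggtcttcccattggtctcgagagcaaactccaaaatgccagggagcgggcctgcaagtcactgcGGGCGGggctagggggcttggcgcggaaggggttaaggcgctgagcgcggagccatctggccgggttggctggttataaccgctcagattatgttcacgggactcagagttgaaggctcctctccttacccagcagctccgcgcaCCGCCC

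Window 1 holds 1 match to the GC box and window 2 holds 2, and neither holds a TATA box or either form of the response element. They contain 12 and 17 CpG dinucleotides, against a median of 7 over all windows.

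Ntf5 encodes neurotrophin 4, which shares TrkB with BDNF (GRCm38 chromosome 7, 45413695 to 45417179, plus strand). Its counts were 0, 1, 0 and 2 in the dLG libraries, 2, 4, 0 and 3 in the VPM libraries and 4, 0 and 0 in the MGv libraries. With at most 4 counts, or 0.30 CPM, in a library, it was near the floor everywhere, was not tested, and no fold is given. A difference between the nuclei was not detectable at this depth.

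Ntrk2 encodes TrkB, the receptor kinase for BDNF (GRCm38 chromosome 13, 58806569 to 59133970, plus strand). The dLG libraries held 278, 209, 199.6 and 261 CPM, the VPM libraries 206, 185, 114 and 186 CPM, and the MGv libraries 144, 163 and 203 CPM. All 3 ranges overlapped, the 3 highest libraries were of dLG and VPM 3 was the lowest. Means were 237 ± 38.4 CPM across dLG libraries (SD, n = 4), 173 ± 40.6 CPM across VPM libraries (SD, n = 4) and 170.0 ± 30.2 CPM across MGv libraries (SD, n = 3). The fitted log2 fold changes were 0.46 ± 0.19 (SE) for dLG minus VPM, 0.48 ± 0.20 (SE) for dLG minus MGv and 0.02 ± 0.20 (SE) for VPM minus MGv, none past the threshold. Both dLG differences passed in limma voom, without the count filter, and with a covariate for the 3 libraries low in Hspa8, at log2 values of 0.38 to 0.61, and that for dLG minus MGv also passed with only those nuclei fitted and without VPM 3 (0.48 in both). Neither passed with the 3 libraries low in Hspa8 left out (0.36 for dLG minus VPM and 0.42 for dLG minus MGv), nor in DESeq2 (0.44 and 0.47). The VPM and MGv difference turned to -0.023 when libraries were scaled by total counts. The gene has 10 annotated transcripts, 7 of them coding, with proteins of 466 to 821 amino acids, so its count pools the kinase receptor with the truncated form.

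Ntrk3 encodes TrkC, the receptor kinase for the Ntf3 product (GRCm38 chromosome 7, 78175959 to 78738012, minus strand). The dLG libraries held 0.49, 9.67, 2.12 and 0.05 CPM, from 8, 225, 39 and 1 counts, the VPM libraries 23.5, 18.7, 16.7 and 18.4 CPM, and the MGv libraries 8.94, 5.97 and 10.4 CPM. The VPM libraries were close together and above all others, whereas the dLG libraries spread from the level of 1 count up into the MGv range. Means were 3.08 ± 4.48 CPM across dLG libraries (SD, n = 4), 19.3 ± 2.95 CPM across VPM libraries (SD, n = 4) and 8.44 ± 2.26 CPM across MGv libraries (SD, n = 3). VPM stood 6.27 times above dLG and 2.29 times above MGv in these means. The fitted log2 fold change was -2.62 ± 0.78 (SE) for dLG minus VPM, past the threshold, and -1.42 ± 0.82 (SE) for dLG minus MGv and 1.2 ± 0.82 (SE) for VPM minus MGv, which were not.

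The Ntrk3 result leaned on single libraries. The high dLG library was dLG 2. Of the relay neuron list, it was the highest dLG library for Tcf7l2 (696 CPM, against 382 to 406), Foxp2 (372 CPM, against 223 to 241), Lhx2, Gbx2 and Prox1. It was the lowest for Rora (849 CPM, against 1334 to 1581) and Slc17a6 (486 CPM, against 534 to 582), and neither for Lhx9. Tcf7l2 and Foxp2 had their highest means in MGv (1168 and 728 CPM). Without dLG 2 the log2 fold change was -4.47 for dLG minus VPM and -3.25 for dLG minus MGv, and both passed. Without all 3 libraries low in Hspa8 the same values were -4.52 and -3.22, and both passed. The call against VPM was lost without dLG 1 (-2.28), dLG 3 (-2.47), VPM 1 (-2.53) or VPM 2 (-2.64), and when only dLG and VPM were fitted (-2.62). The direction, lower in dLG than in VPM, was the same in each of these fits. DESeq2 gave no adjusted p for Ntrk3 in any contrast and so did not call it. The contrasts with MGv passed in limma voom (-3.71 for dLG minus MGv and 1.43 for VPM minus MGv) and without the count filter (-1.38 and 1.23), and that for VPM minus MGv also with only those nuclei fitted.

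Truncated TrkB is also made by astrocytes. The summed list of 10 astrocyte and radial glia genes was 84.2 to 176 CPM in dLG, 122 to 187 CPM in VPM and 129 to 237 CPM in MGv, and the ranges overlapped. Of its genes, Aqp4 reached at most 1.58 CPM, Gja1 1.43 CPM and Gfap 0.0865 CPM. Aldh1l1 reached 5.18 CPM, Sox9 4.86 CPM and Hes5 5.66 CPM. Aldoc, which is on this list, averaged 6.0 CPM in dLG, 34.5 CPM in VPM and 18.0 CPM in MGv. Other genes of the list had other orders: Slc1a3 averaged 6.35, 7.15 and 72.5 CPM in dLG, VPM and MGv, Slc1a2 27.3, 25.4 and 42.6 CPM, and Fabp7 65.5, 64.5 and 35.3 CPM. The part of such cells in the levels of Ntrk2 and Ntrk3 was not tested.

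Taken per kilobase of merged exons, Ntrk3 made up 0.0117 to 2.87% of the summed Ntrk2 and Ntrk3 level in the dLG libraries, 5.93 to 8.58% in the VPM libraries and 2.29 to 3.82% in the MGv libraries. Means were 0.916 ± 1.33% across dLG libraries (SD, n = 4), 6.85 ± 1.22% across VPM libraries (SD, n = 4) and 3.09 ± 0.765% across MGv libraries (SD, n = 3). Ntrk2 was thus the larger of the 2 Trk genes in all 11 libraries.

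Ngfr encodes p75, the receptor common to all neurotrophins, from a single annotated transcript with a protein of 427 amino acids (GRCm38 chromosome 11, 95568818 to 95587735, minus strand). The dLG libraries held 1.10, 1.63, 1.74 and 1.00 CPM, the VPM libraries 6.07, 9.87, 2.73 and 10.9 CPM, and the MGv libraries 0.90, 1.58 and 0.97 CPM. The VPM libraries were spread 4-fold, with VPM 3 the lowest, and did not overlap with the others, while dLG and MGv libraries lay together. Means were 1.37 ± 0.374 CPM across dLG libraries (SD, n = 4), 7.40 ± 3.75 CPM across VPM libraries (SD, n = 4) and 1.15 ± 0.373 CPM across MGv libraries (SD, n = 3), a ratio of 5.41 for VPM over dLG and of 6.43 for VPM over MGv. The fitted log2 fold change was -2.43 ± 0.42 (SE) for dLG minus VPM and 2.68 ± 0.49 (SE) for VPM minus MGv, both past the threshold. That for dLG minus MGv, 0.25 ± 0.48 (SE), was not past it and was -0.016 without the 3 libraries low in Hspa8. Schwann cells and mural cells are also known to make p75. The list for mural cells, fibroblasts and Schwann cells summed to 4.85 to 6.96 CPM in dLG, 5.45 to 7.75 CPM in VPM and 3.25 to 3.68 CPM in MGv. The VPM libraries of this list thus lay above those of MGv, as they did for Ngfr, and overlapped those of dLG, where the Ngfr libraries did not. Its part in the Ngfr result was not tested.

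The Ngfr promoter is printed because this receptor gene passed in both VPM contrasts and has a RefSeq window, minus strand read 5′ to 3′, with GC boxes on either strand in capitals.

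Ngfr, chr11:95587649-95587948: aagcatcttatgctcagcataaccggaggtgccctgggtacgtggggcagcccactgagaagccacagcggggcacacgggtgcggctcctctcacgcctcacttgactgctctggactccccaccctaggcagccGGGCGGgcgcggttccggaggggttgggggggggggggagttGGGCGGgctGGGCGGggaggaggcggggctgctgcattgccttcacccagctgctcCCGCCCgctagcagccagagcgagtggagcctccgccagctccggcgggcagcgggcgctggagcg

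It holds 4 GC boxes and 23 CpG dinucleotides, and no TATA box or response element. The single Ntrk2 window also has 23 CpG dinucleotides, with 1 GC box. A motif match is a run of letters and not evidence of a bound factor.

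Sort1 encodes sortilin, which binds pro-neurotrophins with p75 and sorts BDNF inside the cell (GRCm38 chromosome 3, 108284082 to 108361511, plus strand). The dLG libraries held 28.1, 29.3, 22.3 and 27.2 CPM, the VPM libraries 29.8, 28.9, 17.4 and 25.7 CPM, and the MGv libraries 23.0, 27.1 and 24.1 CPM. The 3 nuclei overlapped fully, and VPM 3 was the lowest library. Means were 26.7 ± 3.09 CPM across dLG libraries (SD, n = 4), 25.4 ± 5.61 CPM across VPM libraries (SD, n = 4) and 24.7 ± 2.14 CPM across MGv libraries (SD, n = 3). The fitted log2 fold changes, 0.07 ± 0.18, 0.11 ± 0.19 and 0.04 ± 0.19 (SE) for dLG minus VPM, dLG minus MGv and VPM minus MGv, were not past the threshold. The first turned to -0.12 without the 3 libraries low in Hspa8, and the last to -0.0076 with scaling by total counts. Of its exonic bases 4.47% lie opposite Gm12523, which had at most 2 counts in a library.

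**Figure D3:**
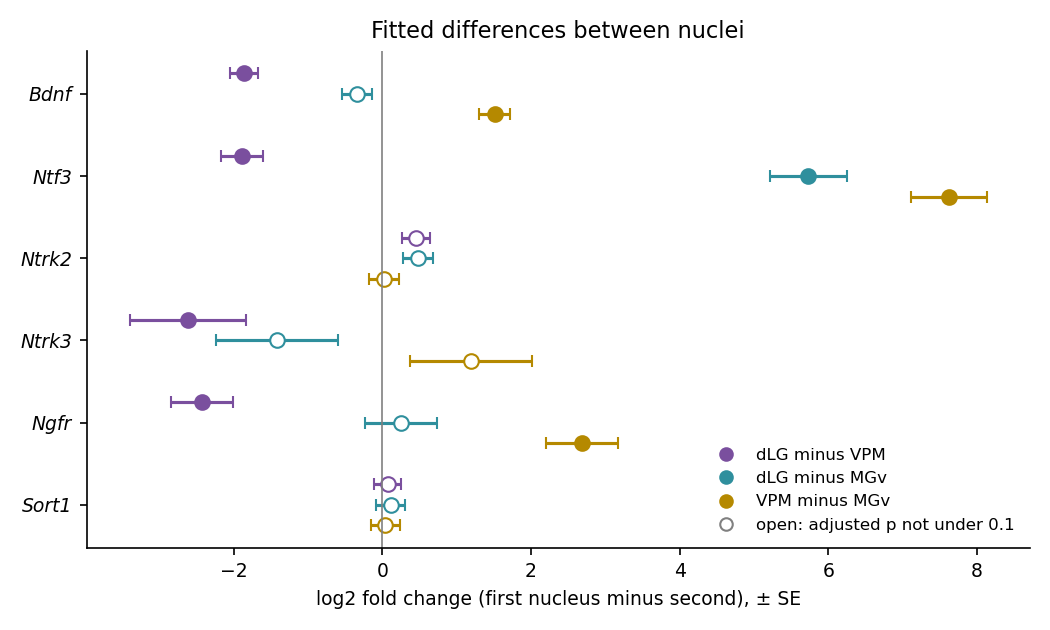
Fitted log2 fold change of the 6 tested genes in the 3 contrasts (horizontal axis, first nucleus minus second, bars ± SE), with filled points where the adjusted p in edgeR's quasi-likelihood test was under 0.1. Bdnf, Ntf3, Ntrk3 and Ngfr lie left of 0 for dLG minus VPM, and the Ntf3 contrasts with MGv, 5.73 and 7.62, lie far to the right.

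To compare levels between genes, CPM was divided by the length of merged exons, which ranged from 1714 bases for Ntf3 to 30170 bases for Ntrk3. In VPM the highest of the members was Ntf3 at 17.2 ± 3.99 CPM per kb (SD, n = 4), above Ntrk2 at 8.95 ± 2.10 (SD, n = 4) and Bdnf at 7.56 ± 1.29 CPM per kb (SD, n = 4), whose libraries overlapped. Sort1 (3.36 CPM per kb) and Ngfr (2.15 CPM per kb) overlapped each other, and Ntrk3 (0.641 CPM per kb) and Ntf5 (0.0385 CPM per kb) followed. In dLG the order was led by Ntrk2 at 12.3 ± 1.99 CPM per kb (SD, n = 4), then Ntf3 at 4.62 and Sort1 at 3.53 CPM per kb, which overlapped, then Bdnf at 2.09 CPM per kb. Ngfr (0.397 CPM per kb), Ntrk3 (0.102 CPM per kb) and Ntf5 (0.013 CPM per kb) each overlapped the next. In MGv, Ntrk2 at 8.81 ± 1.57 CPM per kb (SD, n = 3) was followed without overlap by Sort1 at 3.27 and Bdnf at 2.65 CPM per kb. Ngfr (0.334 CPM per kb) and Ntrk3 (0.280 CPM per kb) overlapped, and Ntf3 (0.0804 CPM per kb) and Ntf5 (0.0378 CPM per kb) were lowest and overlapped too. The ligand genes thus exchanged places between nuclei, from the top of the order in VPM to near the bottom in MGv for Ntf3. Merged exons count all isoforms, so the order of a gene with long annotated exons such as Ntrk2 or Ntrk3 can be set low by this scale.

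**Figure D4:**
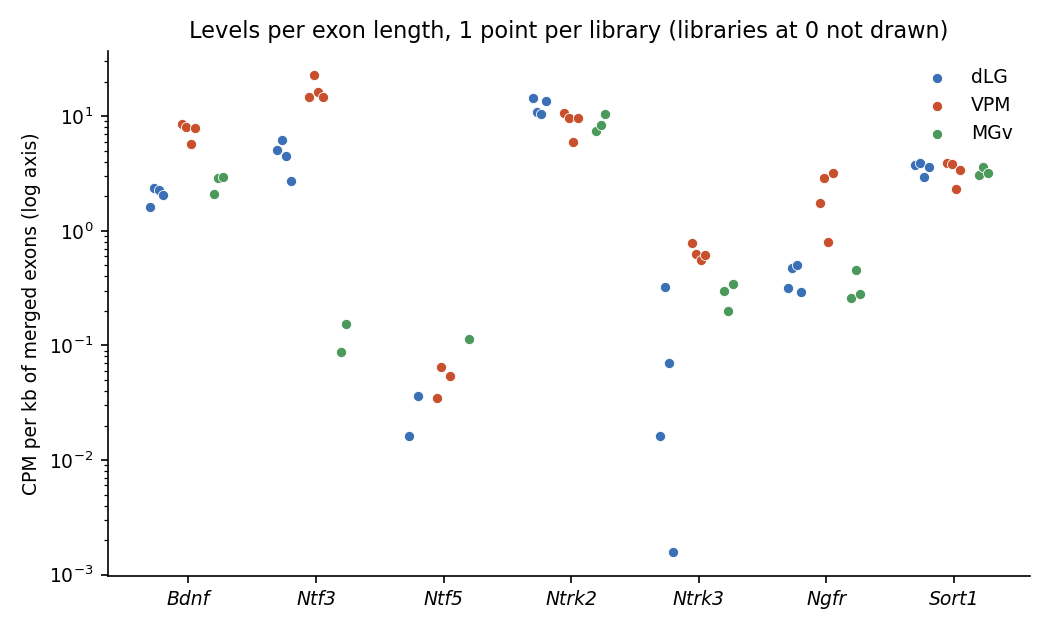
Level of each gene per kilobase of merged exons in every library (log axis, CPM per kb, 1 point per library, colours for nuclei), with libraries at 0 left out. Ntf3 runs from at most 0.154 CPM per kb in MGv to between 14.6 and 23.0 CPM per kb in VPM, while Ntrk2 and Sort1 stay within a narrow band.

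The genes whose log2 CPM followed each member most closely over the 11 libraries were found among 8878 tested genes with a mean of at least 10 CPM. These correlations are descriptions: all genes of a point share its library, and the 11 points fall into 3 nuclei. For Bdnf they were Fbxw7 (Pearson's r = 0.97), a ubiquitin ligase component, Ppargc1a (0.96), a transcriptional coactivator of energy metabolism, and Elmo1 (0.96), a regulator of Rac signalling. Elmo1 averaged 28.4 ± 12.8 CPM across dLG libraries (SD, n = 4), 543 ± 137 CPM across VPM libraries (SD, n = 4) and 73.4 ± 6.25 CPM across MGv libraries (SD, n = 3). For Ntf3 they were Nrep (0.98), Rasd1 (0.98) and Prox1 (0.97), the last a homeobox transcription factor. Rasd1, a Ras-like GTPase gene, repeated the order of Ntf3 with 7.70 ± 3.72 CPM across dLG libraries (SD, n = 4), 59.2 ± 16.5 CPM across VPM libraries (SD, n = 4) and 0.220 ± 0.108 CPM across MGv libraries (SD, n = 3). For Ntrk3 they were Aldoc (0.95), a glycolytic enzyme, Pcsk2 (0.93), a prohormone convertase, and Gars (0.93), a tRNA synthetase. For Ngfr they were Acly (0.94), which makes acetyl-CoA, Pitpnm2 (0.93) and Slc31a1 (0.93), a copper transporter. For Ntrk2 they were Gm26649 (0.94), Sh3kbp1 (0.93) and Mon2 (0.93), and for Sort1 Hectd4 (0.91) and Lmtk2 (0.90).

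The members were then set beside 138 other genes of the pathway in 9 lists, of which 130 entered the test. Of these, 26 passed for dLG against VPM (14 higher in dLG, 12 in VPM), 29 for dLG against MGv (12 higher in dLG, 17 in MGv) and 33 for VPM against MGv (13 higher in VPM, 20 in MGv). These are 20, 22.3 and 25.4% of the 130 genes, where 10.7, 16.1 and 19.0% of all tested genes passed, and the median log2 fold changes were -0.012, -0.048 and -0.061. The lists were drawn up with earlier results of these data known, so nothing is drawn from their counts. Genes are named from them by their largest changes. The adjusted p-values printed for these genes, and those of Fos above, are therefore descriptions of the fit only.

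Among the 7 relatives and co-receptors of sortilin and p75, 4 passed for dLG against VPM, 5 for dLG against MGv and 2 for VPM against MGv, in both directions. Sort1 itself did not differ past the threshold, but its relatives Sorcs3 and Sorcs1, sorting receptors of the same family, were highest in dLG. Sorcs3 averaged 53.9 ± 6.51 CPM across dLG libraries (SD, n = 4), 8.47 ± 1.05 CPM across VPM libraries (SD, n = 4) and 5.23 ± 2.37 CPM across MGv libraries (SD, n = 3), with a log2 fold change of 2.67 ± 0.24 (SE) for dLG minus VPM (edgeR adjusted p = 1.67e-05). Sorcs1 averaged 28.4, 4.97 and 3.36 CPM in the same order. Sorl1, another sorting receptor, was highest in VPM at 23.6 ± 4.64 CPM (SD, n = 4), against 10.2 ± 1.83 CPM across dLG libraries (SD, n = 4) and 5.73 ± 0.481 CPM across MGv libraries (SD, n = 3), and the order of its nuclei was that of Ntf3. Tnfrsf19, a relative of p75, averaged 22.4 CPM in dLG, 32.1 CPM in VPM and 46.4 CPM in MGv, and its difference between dLG and MGv passed with a log2 fold change of -1.05 ± 0.19 (SE; edgeR adjusted p = 0.00222). Its difference between VPM and MGv also passed, but this call was lost in 12 of 22 other fits.

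Of the genes that cleave, sort and release pro-neurotrophins, 13 of the 16 listed were tested, and 5, 7 and 5 passed in the 3 contrasts. Pcsk5, a proprotein convertase, averaged 23.9 ± 2.6 CPM across dLG libraries (SD, n = 4) and 22.0 ± 4.26 CPM across VPM libraries (SD, n = 4), against 4.91 ± 0.713 CPM across MGv libraries (SD, n = 3), and was lower in MGv by log2 values of 2.28 and 2.16 (edgeR adjusted p = 1.22e-05 and 2.05e-05). Pcsk6, a convertase too, was lowest in dLG, with 1.54, 5.08 and 5.95 CPM in dLG, VPM and MGv. Plat, the tissue plasminogen activator that starts extracellular cleavage of pro-BDNF, averaged 38.3 CPM in dLG, 20.9 CPM in VPM and 11.0 CPM in MGv, the reverse of Bdnf between dLG and VPM. Hap1, which takes part in the transport of pro-BDNF and Trk receptors, was highest in MGv at 178 ± 46.7 CPM (SD, n = 3), against 81.8 ± 36.1 CPM across dLG libraries (SD, n = 4) and 49.3 ± 10.9 CPM across VPM libraries (SD, n = 4).

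Of 18 partners and trafficking genes of Trk receptors, 3 passed in any contrast, namely Gipc1 for dLG against MGv, and Cyld and Sytl1 for VPM against MGv, the last named after its values were seen. Of 34 tested adaptors and kinases of the Trk cascade, 4, 2 and 6 passed. Rasgrf1, an exchange factor that activates Ras, averaged 23.3 ± 4.28 CPM across dLG libraries (SD, n = 4), 6.08 ± 1.79 CPM across VPM libraries (SD, n = 4) and 15.8 ± 5.39 CPM across MGv libraries (SD, n = 3), and was the lowest in VPM (log2 fold change of 1.94 ± 0.26, SE, for dLG minus VPM, edgeR adjusted p = 0.000357). The adaptor gene Grb2 was highest in VPM, with 57.5, 93.1 and 63.3 CPM in the 3 nuclei, and both VPM contrasts passed. Of 22 effectors of p75, 2, 3 and 2 passed, among them Maged1, which binds p75, with 547 CPM in dLG, 702 CPM in VPM and 834 CPM in MGv, and the NF-kappaB subunit gene Rela, highest in MGv at 32.3 CPM against 22.0 and 20.2 CPM. Mapk10 (120, 138 and 172 CPM), Shc2 (7.88, 10.1 and 14.4 CPM), Pik3cb (10.7, 5.97 and 7.75 CPM) and Bex1 (539, 395 and 538 CPM in dLG, VPM and MGv) each passed in 1 or 2 contrasts. The calls of Shc2, Pik3cb and Bex1, and that of Maged1 between dLG and VPM, were each lost in 8 to 13 of 22 other fits.

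Of 13 regulators of Bdnf transcription, 4, 5 and 6 passed, and Camk4 passed in all 3 contrasts. Camk4, a calcium-dependent kinase that acts on CREB, averaged 410 ± 57.8 CPM across dLG libraries (SD, n = 4), 644 ± 150 CPM across VPM libraries (SD, n = 4) and 173 ± 15.7 CPM across MGv libraries (SD, n = 3). Its log2 fold change was -0.65 ± 0.16 (SE) for dLG minus VPM (edgeR adjusted p = 0.0272) and 1.9 ± 0.19 (SE) for VPM minus MGv (edgeR adjusted p = 2.2e-05). Mef2c averaged 119, 143 and 50.9 CPM, and was lower in MGv than in both others. Npas4, an activity-induced factor that binds the Bdnf gene, averaged 3.91, 4.95 and 27.9 CPM and was higher in MGv than in both others, and Ep300, a coactivator, averaged 7.42, 5.36 and 9.96 CPM.

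Of 16 genes that neurotrophins and other growth factors induce, 5, 3 and 7 passed. Dusp6, a phosphatase that dampens ERK signalling, was highest in VPM, at 107 ± 14.0 CPM (SD, n = 4) against 39.0 ± 4.28 CPM across dLG libraries (SD, n = 4) and 32.9 ± 6.92 CPM across MGv libraries (SD, n = 3), with log2 fold changes of -1.46 ± 0.16 (SE) for dLG minus VPM and 1.70 ± 0.18 (SE) for VPM minus MGv (edgeR adjusted p = 5.58e-05 and 3.17e-05). Egr1, an immediate early factor like Fos, was lowest in VPM at 9.39 CPM, against 30.4 CPM in dLG and 23.6 CPM in MGv. Arc, which acts at synapses after activity, stood at 12.6 ± 1.32 CPM across MGv libraries (SD, n = 3) and at 1.51 and 1.22 CPM in dLG and VPM.

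Among the 7 tested genes of the GDNF family, another group of neuronal growth factors and their receptors, 2, 3 and 3 passed in the 3 contrasts. Gfra1 averaged 32.8 ± 8.14 CPM across dLG libraries (SD, n = 4), 0.653 ± 0.148 CPM across VPM libraries (SD, n = 4) and 12.4 ± 1.27 CPM across MGv libraries (SD, n = 3), with a log2 fold change of 5.63 ± 0.26 (SE) for dLG minus VPM (edgeR adjusted p = 3.87e-08). Gfra2 was the reverse, at 8.74 ± 1.59 CPM across dLG libraries (SD, n = 4), 73.8 ± 14.1 CPM across VPM libraries (SD, n = 4) and 33.4 ± 8.12 CPM across MGv libraries (SD, n = 3), with -3.07 ± 0.21 (SE; edgeR adjusted p = 9.22e-07). Ret, the kinase that both co-receptors share, averaged 14.5, 15.3 and 7.75 CPM and was lower in MGv than in both others (edgeR adjusted p = 0.0487 and 0.031). Of 22 other fits, the Ret call was lost in 3 for dLG against MGv and in 1 for VPM against MGv.

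**Figure D5:**
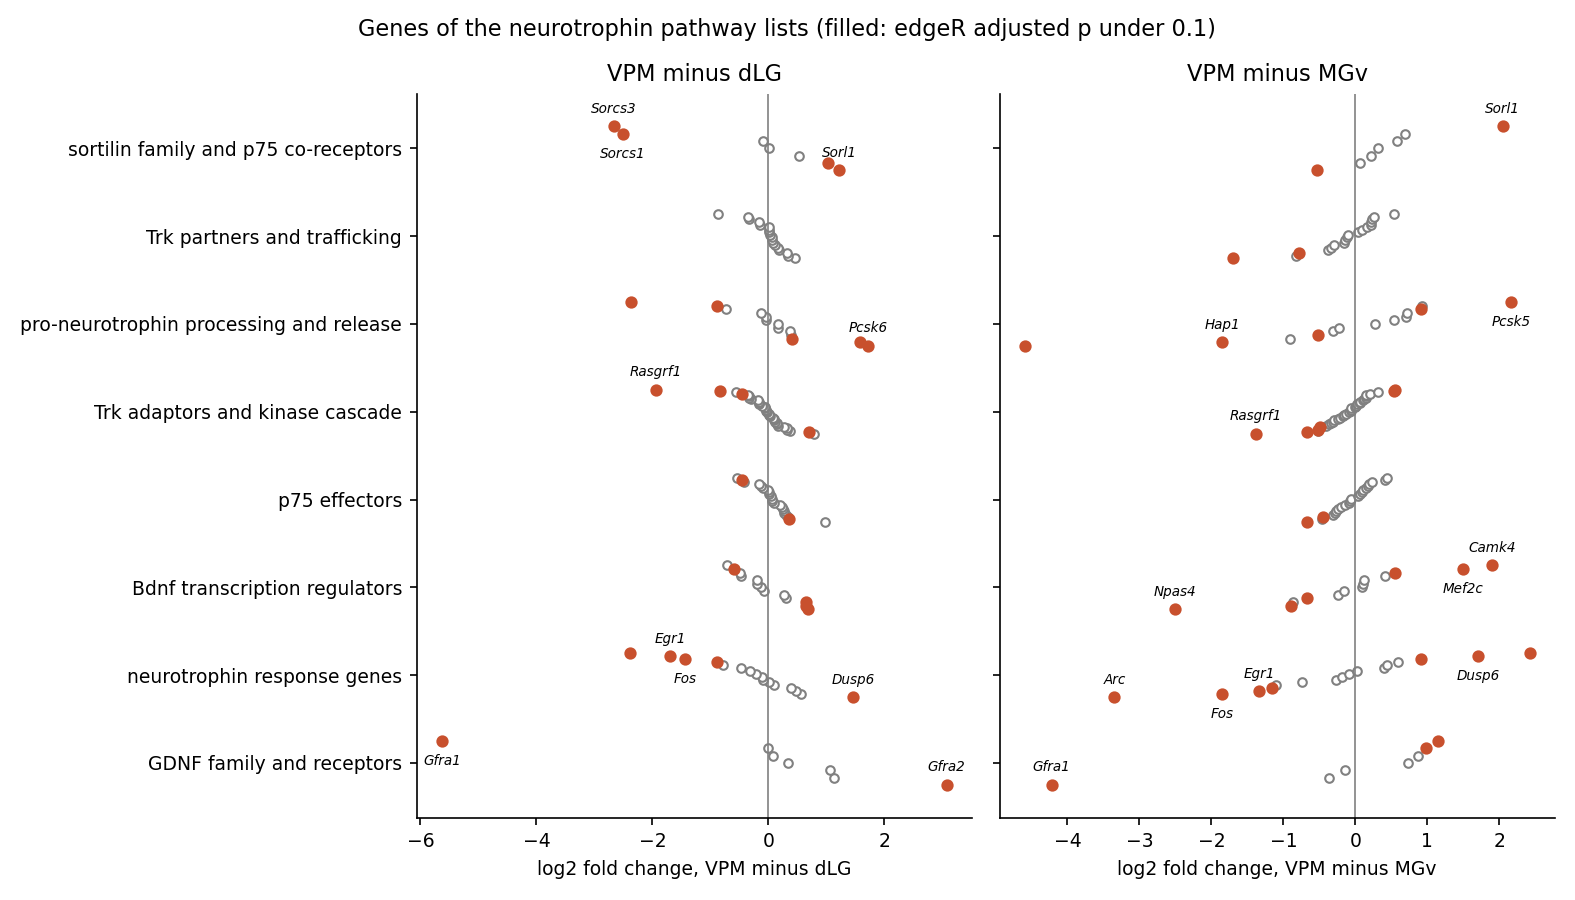
Fitted log2 fold change of the tested genes in 8 pathway lists (rows, 1 point per gene) for VPM minus dLG (left) and VPM minus MGv (right), with filled points where edgeR's adjusted p was under 0.1 and names for those genes of the text that lie farther from 0. Points fall on both sides of 0 in most lists, with Gfra1 far to the left in both panels.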

How the data were processed

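RNA was measured in 11 libraries of sorted neurons, amplified with a SMARTer Ultra Low kit and sequenced as single reads of 50 bases. Raw read counts for each gene were deposited. The authors trimmed reads (Trim Galore 0.6.1, cutadapt 2.3), aligned them with STAR 2.7.0d to GRCm38 and counted them with featureCounts (Subread 1.6.4). Strand and multiply aligned reads are not given in the sources used here. The labels and the study's methods name different library kits.

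Groups came from the sample titles. The members and gene lists were chosen with earlier results of these data known. Symbols, positions and exon lengths came from GENCODE M21 (54723 of 54752 identifiers matched). Promoter windows came from RefSeq (GRCm38.p6), where 4 of the 7 members had an entry and Ntrk3, Ntf5 and Sort1 had none. Motifs were matched exactly on both strands.

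All 11 libraries entered 1 model with 3 group means (edgeR 4.0.16, R 4.3.3, quasi-likelihood test, filterByExpr, TMM scaling). This left 15907 genes, a biological coefficient of variation of 28.2%, and Benjamini-Hochberg adjustment over all of them with a threshold of 0.1. The SE was derived from the F statistic and the log2 fold change. CPM is TMM-scaled, and log2 CPM for correlations used a prior count of 2. The scripts were tested on simulated data. No libraries of a nucleus were copies of each other (chi-square per degree of freedom of 12.8 to 115). Genes named are the members, up to 4 genes a list that passed at 5 CPM or more in a nucleus by largest change, the genes most like each member (up to 3), and markers. Some genes under this rule are not reported here. Hspa8 was added after its values were seen. Alternatives were DESeq2 1.42.0, limma 3.58.1 voom, DESeq2 size factors, total counts, no filter, a minimum of 10 counts in all libraries, the replicate block, thinning, an adjusted p of 0.05, only the nuclei compared, the Hspa8 libraries left out or as a covariate, and each library left out.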

Additional observations from a re-analysis of the deposited data

Results flagged for a closer look

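Among 96 sets of dLG or VPM libraries tested for a library far from the other 3, 6 had one, where chance alone marks about 1 set in 20. MGv, with 3 libraries, was not tested. No set of a member was among the 6. Summed astrocyte and radial glia genes stood at 187 CPM in VPM 4, against 122 to 129 CPM in the other VPM libraries. Summed oligodendrocyte lineage genes stood at 30.7 CPM in dLG 2, against 13.2 to 15.8 CPM. Summed red blood cell genes stood at 514 CPM in dLG 3, against 0.143 to 0.344 CPM. Among the pathway genes, Bex1 stood at 545 CPM in VPM 3, against 331 to 353 CPM. Npas4 stood at 11.5 CPM in dLG 2, against 0.872 to 1.91 CPM. Arc stood at 3.87 CPM in dLG 2, against 0.599 to 0.852 CPM.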

How the results depend on the processing

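The members called between dLG and VPM (4) became 2 with at least 10 counts in every library, a filter that removed Ntf3 and Ntrk3, and ranged from 3 to 4 with a library left out. They became 5 in limma voom, without the count filter and with the Hspa8 covariate, 1 of them (Ntrk2) higher in dLG. They became 3 in DESeq2, at an adjusted p of 0.05 and with only those nuclei. Between VPM and MGv the 3 calls became 4 in voom, without the count filter and with only those nuclei, and 2 with at least 10 counts in every library. Between dLG and MGv the 1 call became 0 under that filter, 2 with only those nuclei or the Hspa8 covariate, and 3 in limma voom, without the count filter and without the 3 libraries low in Hspa8, with 1 to 2 when a library was left out (2 without dLG 2 or VPM 3). Genes called between dLG and VPM (1704) became 4414 in voom and 2618 without those 3 libraries, and ranged from 1093 (without VPM 2) to 2223 (1101 without VPM 1), and pathway genes (26) became 43 in voom. In DESeq2 the adjusted p of Ntrk3 was not given in any of the 3 contrasts. Scaling by total counts moved the median of all genes for dLG minus VPM to 0.10 and the genes higher in dLG to 1075 of 1760 (61.1%), from 791 of 1704 (46.4%).

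Directions turned only for differences near 0. Sort1 for dLG minus VPM was -0.061 in voom and -0.12 without the 3 libraries, and -0.065 to 0.15 with a library left out. Sort1 for VPM minus MGv was -0.0076 with total counts and -0.045 with thinned counts, and -0.024 to 0.18. Ntrk2 for VPM minus MGv was -0.023 with total counts and -0.033 with the covariate, and -0.073 to 0.18. Ngfr for dLG minus MGv was -0.016 without the 3 libraries. The causes were not tested. At 0.05 in place of 0.1, Ntrk3 for dLG minus VPM was not called.

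Same-numbered libraries of different nuclei did not deviate together on average (mean r of 0.016 over 10 pairs, -0.20 to 0.48). For the other 30 pairs the mean was -0.0050 (-0.31 to 0.27). The highest single pair was dLG 4 with VPM 4 (0.48). Among the 3 libraries low in Hspa8, r was 0.27 for dLG 2 with VPM 3, 0.26 for dLG 2 with MGv 1 and 0.23 for VPM 3 with MGv 1. With the replicate number as a block 1464, 2169 and 2695 genes were called, against 1704, 2562 and 3016, members called stayed at 4, 1 and 3, and Ntrk2 for VPM minus MGv was -0.058.

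MGv totals, the smallest, limit what can be said of Ntf5 and of Ntf3 in MGv.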
